A study of Bos taurus with 18 samples.

Results

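Single-nucleotide polymorphism (SNP) sites in the 3′ untranslated regions (3′ UTRs) of bovine messenger RNAs were read in the pituitary and hypothalamus of 9 Angus cows. The 38698 sites are those that the authors' annotation places in a 3′ UTR, 3.90% of the 992284 SNP sites in the deposited table, and they lie in 8939 gene models. Each tissue of each cow gave 1 library of poly(A) RNA, so 18 libraries fall into 6 groups of 3, pituitary and hypothalamus at 6, 18 and 30 months. Per the labels the cows were weaned calves at 6 months, sexually mature at 18 months and past their first calving at 30 months; none was in heat. All groups are untreated Angus cattle, and the cows of each age are the only replicates. The labelled tissues could not be checked against defining markers such as pituitary hormone genes, because the identifiers of the gene models match no gene symbol in the annotation used here. Set against the 3′ UTR sites were 31439 synonymous, 18950 nonsynonymous and 528182 intron sites of the same table.

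The 3′ UTR is the stretch of a messenger RNA between the stop codon and the poly(A) tail. It carries binding sites for microRNAs and RNA-binding proteins that set how long a transcript lasts and how often it is translated, and no base in it encodes an amino acid. A cow that inherited different alleles from its parents is heterozygous at a site, and the share of RNA reads that carry each allele then shows how much of the transcript comes from each chromosome copy. Sites called from RNA can also arise after transcription: adenosine deaminases, which are active in brain, turn adenosine into inosine, which sequencing reads as guanosine. No genomic DNA calls were used here, so a difference read in RNA is called a site or an allele below with no statement about its origin.

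Most 3′ UTR sites were autosomal: 37959 lay on autosomes, 702 on the X chromosome, 37 on unplaced sequence and 0 on the mitochondrial genome. A gene model held a median of 3 such sites and at most 63. There were 2723 gene models (30.5%) with 1 site and 933 with 10 or more. Of the sites, 74.1% had no other SNP site within 35 bases, against 79.2% of synonymous sites. A genotype was given in all 18 libraries at 24964 sites, and 26842 sites were non-reference at a depth of 20 reads or more in at least 1 library. Gene counts totalled 28724861 to 38036840 reads per library, and the 8939 gene models held 54.7% to 62.3% of them.

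The 5 gene models with most sites show how densely some 3′ UTRs are covered. On chromosome 10, gene13193 held 63 sites between bases 84490700 and 84500966, and gene12641 held 61 between 29962572 and 29970206. On chromosome 17, gene19788 held 62 sites between 17211885 and 17220350. Gene23997 on chromosome 20 held 56 sites between 20442008 and 20449674, and gene7105 on chromosome 5 held 52 between 114639973 and 114644925. Read depth separated these models: gene23997, 9346 bases long, had a median of 264 CPM (counts scaled to the library total) and gave 219 heterozygous calls at depth 20 or more in 10 libraries, while gene12641, 12720 bases long, had 7.87 CPM and gave 0. In gene13193 the number of heterozygous sites ran between 0 and 46 per library. The mean reference share was 52.9% over the 213 heterozygous calls of gene13193, 51.5% over the 154 of gene19788 and 53.8% over the 219 of gene23997. None of the 13 sites tested in these 3 models (5, 4 and 4) differed from 50%. Coordinates are those of the deposited table, whose chromosome names are those NCBI gives to the UMD assembly.

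The genotypes identified the cow behind each library. Within the 3′ UTR, the pituitary and hypothalamus libraries of the same age and number had the same genotype at 99.7% to 99.9% of the sites called at depth 20 or more in both (9 pairs, 12363 to 20325 sites each). Libraries of different cows shared 49.02% to 66.3% of genotypes (144 pairs). The same-animal pairs differed at 306 of 163320 comparisons. The pituitary was heterozygous and the hypothalamus homozygous in 119 of these, the reverse held in 187, and opposite homozygous genotypes were found in 0. The 6-month cow numbered 1 gave 66 of the differences, 16 with the pituitary heterozygous and 50 with the hypothalamus heterozygous, while the other 8 cows gave 22 to 38 each.

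One library stood apart and bears on several values below. In the pituitary of the 18-month cow numbered 3, 7577 3′ UTR sites were non-reference at depth 20 or more, against 9003 to 11866 in the other 17 libraries. The median depth of these calls was 70 there and 48 to 61 elsewhere. The depth ran toward the transcript end: among gene models with 3′ UTR sites at least 200 bases apart, the median log2 ratio of depth at the most distal over the most proximal site was 1.23 in that library (1842 gene models, distal site deeper in 72.2%) and −0.42 to 0 in the other 17. The hypothalamus of the 18-month cow numbered 2 was the library at 0. At synonymous sites the pituitary library of the 18-month cow numbered 3 had 2552 non-reference calls at depth 20 or more, against a median of 7406 over the 18 libraries; the 3′ UTR median was 10086.5.

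**Figure D1:**
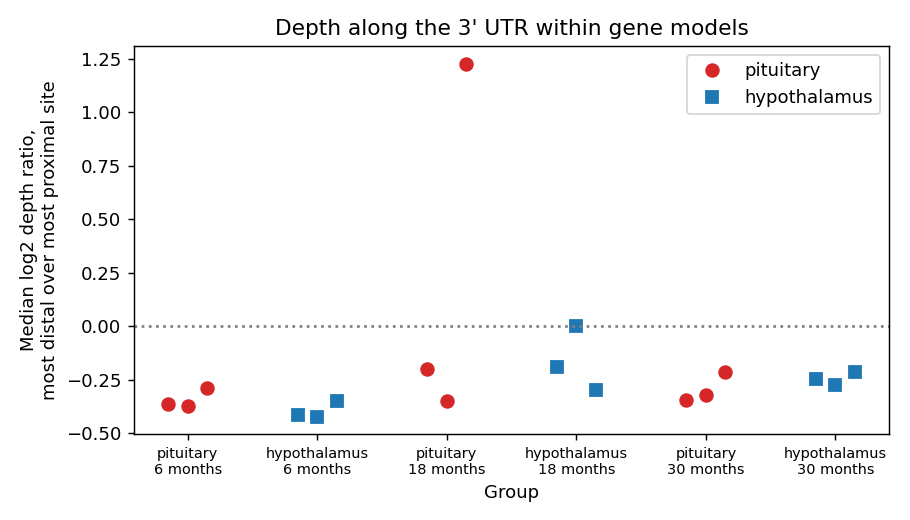
Median log2 ratio of read depth at the most distal over the most proximal 3′ UTR site of a gene model (vertical axis) in each of the 18 libraries, by group (horizontal axis; 1 point is 1 library). A single pituitary library at 18 months lies at 1.23, and the other 17 lie between −0.42 and 0.

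Depth depended on the called genotype. The 178470 heterozygous 3′ UTR calls had a median depth of 33 reads (quartiles 15 and 71, highest 853), and 66.8% of them reached 20. Homozygous alternative calls, 113407 in number, had a median of 24 (quartiles 8 and 58) and 55.04% reached 20. The 333747 homozygous reference calls had a median of 21 (quartiles 7 and 29), and their depths piled up at 3 values: 33214 calls had a depth of 2 against 3035 with a depth of 1, 26788 had 7 against 3560 with 6, and 19352 had 20 against 1621 with 19. Heterozygous calls had no step at 7 or 20, with 4203 calls at depth 7 and 4231 at 6, and 2675 at depth 20 and 2710 at 19. Homozygous alternative calls also rose at depth 2, with 8135 calls against 494 at depth 1. They had no step at 7 or 20, with 2754 calls at depth 7 and 3062 at 6, and 1489 at depth 20 and 1566 at 19. The depth of homozygous reference calls was therefore not read as the coverage of a site, and the depths below are those of non-reference calls unless stated. The limit of 20 reads was still applied to homozygous reference calls in genotype comparisons, allele frequencies and counts of sites called at that depth.

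**Figure D2:**
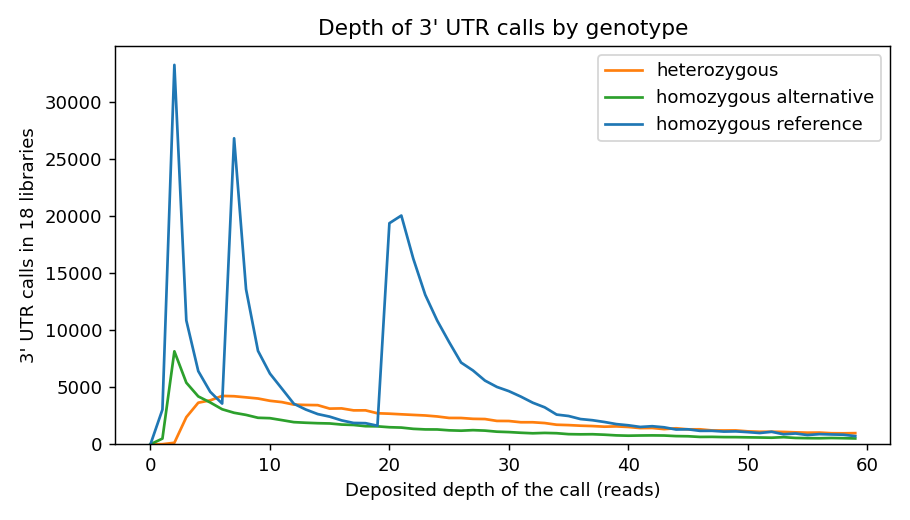
Number of 3′ UTR calls, summed over 18 libraries (vertical axis), by deposited depth in reads (horizontal axis), for heterozygous, homozygous alternative and homozygous reference calls. The homozygous reference curve jumps at 2, 7 and 20 reads, and the other curves have no step at 7 or 20.

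Among non-reference calls, 3′ UTR sites were read more deeply than coding or intron sites. A depth of 20 or more was reached by 62.2% ± 1.51 of non-reference calls at 3′ UTR sites, 57.0% ± 3.85 at synonymous, 46.8% ± 2.54 at nonsynonymous and 5.80% ± 0.84 at intron sites (mean and SD over 9 cows, the libraries of a cow averaged). Each difference held in 9 of 9 cows (exact sign-flip permutation test over cows, two-sided, adjusted p = 0.00391 for all 3 classes, the smallest the design allows before adjustment). The median depth of the calls that reached 20 was 54.4 ± 3.53 at 3′ UTR sites, 49.9 ± 2.35 at synonymous, 43.6 at nonsynonymous and 31.3 at intron sites, with the same adjusted exact p of 0.00391. Without the 18-month cow numbered 3, the difference between 3′ UTR and synonymous sites was 3.84 reads, higher in 8 of 8 cows (exact p = 0.00781). With homozygous reference calls included, the order against synonymous sites turned round: 35.6 ± 0.88 reads at 3′ UTR sites and 41.9 ± 1.58 at synonymous sites, a difference of −6.33 (exact adjusted p = 0.00586).

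Depth at a 3′ UTR site followed the abundance of its transcript. Across gene models, the Spearman correlation of the median non-reference depth with gene counts per base of model length was 0.619 to 0.782 in the 18 libraries. It is a description, since both come from the same reads. The 5 deepest sites called in all 18 libraries with more than 1 genotype all lay in models with 323 to 705 CPM. The deepest, chr18:55115047 in gene21603, had 572 to 853 reads per library and was heterozygous in 16 of them. Its reference share was 54.7% to 66.4% in the pituitary (median 55.8%, 8 libraries) and 52.6% to 59.03% in the hypothalamus (median 54.2%, 8 libraries). At 56.1% in the fit over 8 cows it differed from 50% (95% interval 54.7% to 57.4%, limma, adjusted p = 3.94e-07). The next 3, chr11:106247682 in gene14655, chr1:141531425 in gene1074 and chr2:119489729 in gene2108, had fitted shares of 49.6%, 51.8% and 46.3%, none of which passed after adjustment (limma, adjusted p = 0.772, 0.165 and 0.407). The 95% interval at gene1074, 50.2% to 53.3%, lay just above 50%, and those of gene14655 and gene2108 included it. In gene2108 the reference share was as low as 23.6% in a pituitary and 22.1% in a hypothalamus, while the medians were 50.6% and 50.2%. The fifth, chr13:74040328 in gene16309, was homozygous for the alternative base in 16 libraries and heterozygous in the other 2, at 51.8% in the pituitary and 47.9% in the hypothalamus.

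The alternative allele was usually the rarer one among the 9 cows. At 8870 3′ UTR sites both libraries of every cow had the same genotype at depth 20 or more, which gives 18 chromosome copies per site. The alternative allele was fixed at 352 of them (3.97%) and segregated at 8518, with a mean frequency of 29.8% and a median of 22.2%. It was the minor allele at 76.0% of segregating sites and the major allele at 19.7%. A single copy was seen at 2118 sites (24.9%), 2 copies at 1139 and 17 copies at 162. Synonymous sites gave close values: 3588 sites, 3.99% fixed, a mean frequency of 29.7% and a single copy at 25.9%. At nonsynonymous sites the mean frequency was 28.1%, with a single copy at 27.0% of sites. These frequencies are descriptions, since neighbouring sites are inherited together and only sites of deeply read transcripts enter.

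**Figure D3:**
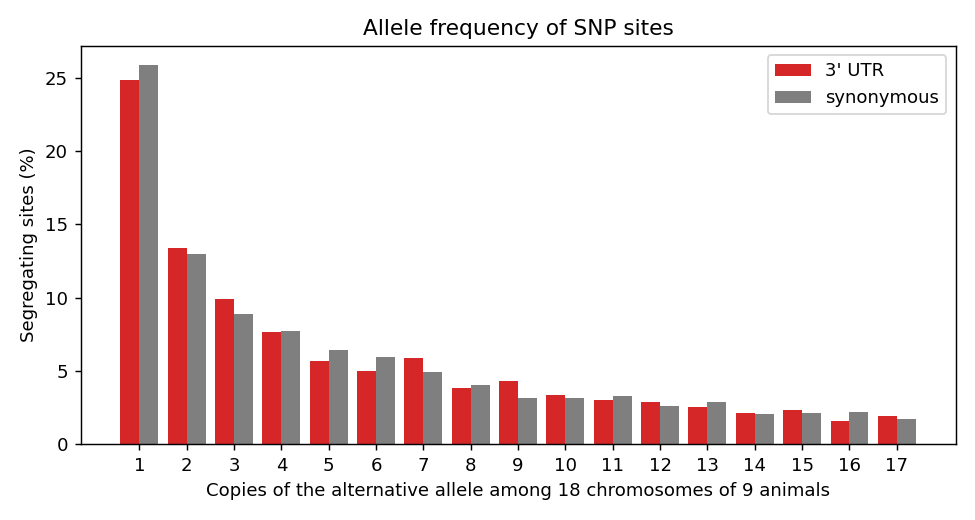
Percent of segregating sites (vertical axis) by the number of alternative allele copies among 18 chromosomes of 9 cows (horizontal axis), for 8518 3′ UTR and 3445 synonymous sites. In both classes the bar for 1 copy is the tallest, at 24.9% for 3′ UTR and 25.9% for synonymous sites.

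Heterozygous genotypes made up 65.5% ± 2.37 of the non-reference 3′ UTR calls at depth 20 or more, against 64.4% ± 2.93 at synonymous, 64.5% ± 2.57 at nonsynonymous and 64.2% ± 3.02 at intron sites. The difference of 1.10 percentage points from synonymous sites was positive in 7 of 9 cows (exact adjusted p = 0.0352), and that of 1.03 from nonsynonymous sites in 8 of 9 (exact adjusted p = 0.0352). From intron sites it differed by 1.35 points, positive in 7 of 9 cows (exact adjusted p = 0.0469). The difference from synonymous sites lay near the threshold: without the 6-month cow numbered 1 or 3, the 18-month cow numbered 2, or the 30-month cow numbered 1 or 2, the adjusted p over 8 cows was up to 0.0703 and the call was lost. Over the 8518 segregating sites, the observed heterozygosity was 32.9% and the value expected from the allele frequencies 30.9%; at synonymous sites these were 32.5% and 30.6%.

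The bases exchanged at 3′ UTR sites lay between those of synonymous and nonsynonymous sites. Transitions, exchanges within the purines or within the pyrimidines, made up 71.5% ± 0.24 of non-reference 3′ UTR calls, 85.4% ± 0.20 of synonymous, 69.1% ± 0.26 of nonsynonymous and 70.5% ± 0.85 of intron calls. The 3′ UTR value was lower than the synonymous in 9 of 9 cows (difference −13.9 points) and higher than the nonsynonymous in 9 of 9 (difference 2.38; exact adjusted p = 0.00586 for both). Calls that read A in the reference and G in the cow, or T and C, which are the same change seen from either strand, made up 35.1% ± 0.29 at 3′ UTR sites. The same share was 39.7% ± 0.50 at synonymous, 32.1% ± 0.25 at nonsynonymous and 36.2% ± 0.36 at intron sites, and each difference held in 9 of 9 cows (exact adjusted p = 0.00391).

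Placed on the transcript strand, the 3′ UTR changes were not symmetric. The strand came from the deposited codon changes of coding sites in the same gene model, which gave it for 33307 sites (86.1%) with 0 conflicts among 8603 gene models with several informative coding sites. A-to-G calls made up 18.3% ± 0.26 and T-to-C calls 17.002% ± 0.17, a difference of 1.27 points that was positive in 9 of 9 cows (exact test, adjusted p = 0.00551 over 24 comparisons). In the same direction, A-to-T exceeded T-to-A by 0.40 points in 9 of 9 cows. C-to-T was below G-to-A (difference −0.50), A-to-C below T-to-G (−0.50) and C-to-A below G-to-T (−0.53), each in 9 of 9 cows with an adjusted exact p of 0.00551. C-to-G and G-to-C differed by 0.14 points, which did not pass (exact adjusted p = 0.0938). The A-to-G excess over T-to-C was 2.74 points at intron and 10.6 at nonsynonymous sites, and at synonymous sites the difference was −8.34.

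At heterozygous calls the reference allele had slightly more reads. The mean reference share per library was 52.4% to 52.8% (median 52.7%, 18 libraries, 4837 to 8294 calls each), and the reference allele led at 57.5% to 59.8% of calls. Each library had 71.4% to 74.4% of its calls between shares of 40% and 60%, 0.17% to 0.64% below 20% and 0.95% to 1.90% above 80%. Chance reading of alleles of equal amount gives a share an SD of 11.2 percentage points at a depth of 20 and 7.07 at a depth of 50, and the SD between the calls of a library was 9.83 to 10.9. At synonymous sites 72.5% to 76.5% of calls lay between 40% and 60%, and 0.58% to 1.62% lay above 80%.

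The reference share was higher at 3′ UTR than at coding sites and lower than in introns. It was 52.64% ± 0.12 at 3′ UTR, 51.98% ± 0.18 at synonymous, 52.31% ± 0.21 at nonsynonymous and 53.5% ± 0.34 at intron sites (SD, n = 9 cows). The 3′ UTR share exceeded the synonymous by 0.66 points in 9 of 9 cows (range 0.29 to 0.92; exact adjusted p = 0.00586), by 0.31 without A-to-G and T-to-C sites (exact adjusted p = 0.0234), and the nonsynonymous by 0.33 in 8 of 9 (exact adjusted p = 0.00781). Against introns the difference was −0.87, lower in 9 of 9 cows (exact adjusted p = 0.00586). Within the 3′ UTR, sites with another SNP site within 35 bases had a share of 53.2% ± 0.30 (10042 sites) and isolated sites 52.4% ± 0.12 (28656 sites), a difference of 0.81 points in the same direction in all 9 cows (exact p = 0.00391). Whether reads that carry the alternative bases were mapped less often was not tested.

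**Figure D4:**
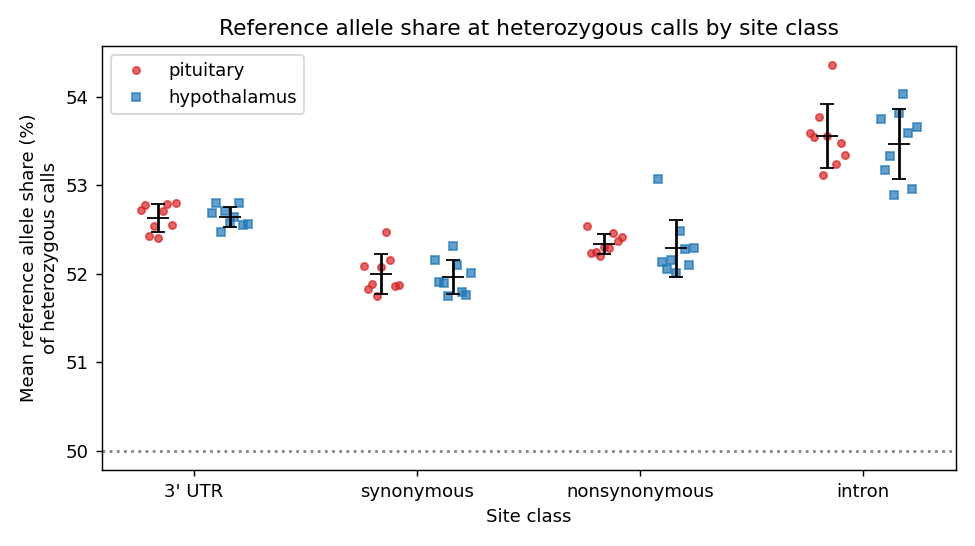
Mean reference allele share in percent (vertical axis, not starting at 0) over the heterozygous calls at depth 20 or more of each library, by site class and tissue (horizontal axis); 1 point is 1 library, the bar is the mean and the error bar the SD over 9 libraries. The dotted line marks 50%, and every library lies above it in each class; the 3′ UTR libraries lie between 52.4% and 52.8%.

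By substitution on the transcript strand, A-to-G sites had the highest reference share, 53.7% ± 0.20 over 9 cows (range 53.4% to 54.0%, 17457 calls). T-to-C sites, the same exchange on the opposite strand, had 52.4% ± 0.25 (range 52.2% to 52.8%, 15890 calls), so the ranges did not overlap. The other 10 substitutions had means between 51.9% (G-to-C) and 52.7% (T-to-G and C-to-T). These values are descriptions of 12 groups and were not tested.

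A set of 3′ UTR sites was heterozygous in every library at depth 20 or more. There were 19 among the 8919 sites called at that depth in all 18 libraries (0.213%), in 15 gene models, and 16 of them had a known strand. On the transcript strand 11 were A-to-G and 0 were T-to-C. The other 5 were G-to-A in gene8987 and gene31918, G-to-C and C-to-T in gene8987, and A-to-C in gene20931. Among 3623 synonymous sites 4 were heterozygous in every library (1 A-to-G), among 1518 nonsynonymous sites 5 (3 A-to-G) and among 1135 intron sites 2 (1 A-to-G).

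The A-to-G sites of this set had low shares of G in many libraries. At chr5:28826685 in gene5737, G made up 10.1% to 25.9% of reads, with 15.01% ± 3.10 in the pituitary and 17.3% ± 6.13 in the hypothalamus (SD, n = 9 each). At chr21:70717418 in gene25127 it was 12.4% to 27.8%, with 20.5% ± 4.94 in the pituitary and 18.9% ± 3.92 in the hypothalamus. On the X chromosome, chrX:39932791 in gene31281 had 20.9% ± 11.8 in the pituitary and 22.4% ± 6.22 in the hypothalamus. By its definition the set holds no site with a homozygous library. At these 3 sites the tissues overlapped.

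Other sites of the set had G as the more common base or varied widely. At chr11:36411878 in gene13758, with at least 144 reads in every library, G made up 16.4% to 63.5% of reads (median 25.8%; another SNP site lies 1 base away), with 32.9% ± 14.1 in the pituitary and 25.6% ± 5.96 in the hypothalamus. At chr23:27199199 in gene26361 it was 57.4% ± 6.66 in the pituitary and 53.9% ± 11.2 in the hypothalamus. Neighbouring sites differed in level: in gene14564, chr11:103938750 had a median G share of 65.3% and chr11:103938765, 15 bases away, 35.5%, and in gene8971 chr7:21305424 had 50.6% and chr7:21305389 22.95%. The sites in gene14564 and gene8971 were chosen after their values were seen. Over the 11 A-to-G sites, the mean share was 34.1% ± 3.84 in the pituitary and 30.8% ± 4.37 in the hypothalamus (exact permutation test of 9 against 9, two-sided, p = 0.105). That test did not pair the tissues of a cow, and no paired test was run on these sites. By age it was 31.2% ± 3.36 at 6 months, 31.95% ± 3.18 at 18 months and 34.3% ± 3.31 at 30 months (n = 3 cows each, SD; exact p = 0.511, smallest possible 0.00357).

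The sites of this set that were not A-to-G on a known strand varied in level. The 3 sites of gene8987, chr7:21613135, chr7:21613474 and chr7:21613604, had median alternative shares of 47.2%, 48.5% and 46.3%. At chr10:101892366 in gene13350, of unknown strand, the median was 44.9%. It was 20.6% at chr11:99621615 in gene14473, also of unknown strand, and 29.5% at the A-to-C site chr18:26533821 in gene20931. The sites in gene13350, gene14473 and gene20931 were chosen after their values were seen. The site chrX:95553492 in gene31918, a G-to-A site with at least 183 reads in every library, had 37.1% ± 13.3 in the pituitary and 35.3% ± 14.8 in the hypothalamus. The site chr27:37069808 in gene29412, of unknown strand, had 29.04% ± 6.51 in the pituitary and 29.02% ± 5.22 in the hypothalamus.

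A wider set, heterozygous in at least 16 libraries at depth 20 or more, held 106 of 16068 3′ UTR sites (0.660%) in 76 gene models. Of the 88 with a known strand, 39 (44.3%) were A-to-G, in 34 gene models, against 11 T-to-C, 16 G-to-A, 8 C-to-T and 14 other changes. The A-to-G share was 13.5% of 37 such synonymous sites, 43.5% of 23 nonsynonymous sites and 66.7% of 12 intron sites. The 39 A-to-G sites had a mean alternative share of 38.2% ± 1.62 in the pituitary and 37.7% ± 1.962 in the hypothalamus (exact permutation p = 0.581). With the tissues of a cow paired, the exact sign-flip test gave p = 0.547. Site medians of the 39 sites ran from 11.8% to 80.9%, with 16 under 35%. The 49 sites of other changes had 48.3% ± 1.16 in the pituitary and 47.3% ± 1.60 in the hypothalamus, with 2 site medians under 35%. Another SNP site lay within 35 bases of 46.2% of the A-to-G sites and of 22.4% of the others. Whether some of these sites lie in genes with near-identical copies was not tested.

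Tested one by one against 50%, 1175 of 8761 3′ UTR sites (13.4%) were called unequal in reference share. The test was limma on the logit of the share, at sites heterozygous at depth 20 or more in both libraries of at least 3 cows. Benjamini-Hochberg adjustment ran over 27130 sites of all classes. On simulated data the false share among site calls was above its nominal level. The background over all classes was 12.4%. The reference share was higher at 1042 of the 3′ UTR sites, against a background of 10.6%, and lower at 133, against 1.87%. The called share was 8.24% of 6113 synonymous, 10.1% of 2405 nonsynonymous and 16.6% of 2286 intron sites. Measured against the mean of each library in place of 50%, 891 3′ UTR sites passed (10.2%, against 9.77% over all classes). Of these, 447 had a higher and 444 a lower reference share, so the excess of higher calls depends on the value the sites are set against.

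The sites with a higher reference share had a median of 59.5% (quartiles 56.8% and 63.4%) at a median depth of 105.5 reads, and 106 of them reached 70%. Those with a lower share had a median of 41.4% at a median depth of 88.5 reads, and 9 were at 30% or less. Sites that did not pass had a median share of 51.4% at 58.5 reads, so the calls lay at deeper sites. Another SNP site lay within 35 bases of 31.3% of the higher, 29.3% of the lower and 23.3% of the other sites. Of 6626 isolated sites, 774 passed (11.7%, against 10.5% over all classes). The called sites lay in 673 of the 3141 gene models tested, against 1467 of 6289 over all classes. Of the 673, 229 held several called sites, which had a higher reference share throughout in 172, a lower one throughout in 14 and both directions in 43. Because 1042 of the 1175 called sites had a higher share, these counts do not show agreement within a gene model, which was not tested. In all heterozygous libraries 623 called sites kept 1 side of 50%, 576 above and 47 below.

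The most unequal sites on the high side were of different kinds. At chr5:100205669 in gene6715 the fitted share was 98.9%, but 4 of its 6 heterozygous calls list 0 reads of the alternative base, and the share was 53.9% in a single pituitary library. At chr6:71916756 in gene7735 (fitted share 88.0%) 7 of 11 heterozygous calls list 0 alternative reads. Such calls were rare over all 3′ UTR sites, 107 of 119223 heterozygous calls at depth 20 or more. At the other 3 named sites each call had reads of both alleles.

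At those 3 sites the reference share was 73.6% or more in every heterozygous library of depth 20 or more. At chr1:118448308 in gene874, of unknown strand, the reference share was 83.5% to 89.7% in the pituitary (median 86.4%, 5 libraries) and 85.5% to 91.4% in the hypothalamus (median 87.1%, 6 libraries), with 145 to 232 reads. The C-to-A site chr1:144053531 in gene1096 had 78.1% to 89.7% in the pituitary (median 86.7%, 4 libraries) and 82.1% to 92.2% in the hypothalamus (median 85.3%, 6 libraries); another SNP site lies 13 bases away. The A-to-G site chr15:66577379 in gene18279, a model with a median of 1004 CPM, had 73.6% to 92.0% in the pituitary (median 85.0%, 6 libraries) and 81.8% to 90.7% in the hypothalamus (median 88.5%, 7 libraries). In the remaining 5 libraries gene18279 was homozygous for the reference base, with a lowest deposited depth of 2 reads, and in none for the alternative. Only 5 cows were heterozygous in both tissues, so some cows were heterozygous in 1 tissue and homozygous for the reference base in the other. The fitted shares were 87.2%, 86.3% and 86.2% (limma, adjusted p = 6.11e-12, 1.85e-08 and 3.16e-13).

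On the low side the fitted reference share of the 5 named sites was 18.6% to 29.3%. The G-to-C site chr2:47312465 in gene1632 had 10.96% to 25.3% in the pituitary and 14.6% to 21.3% in the hypothalamus (3 libraries each; fitted share 18.6%, limma, adjusted p = 7.96e-08). The A-to-G site chr15:55254774 in gene18165 was heterozygous in all 18 libraries, 17 of them at depth 20 or more. Its reference share there was 12.7% to 36.6% in the pituitary (median 20.2%, 8 libraries) and 15.4% to 29.2% in the hypothalamus (median 19.1%, 9 libraries), for a fitted share of 20.6% over 8 cows (limma, adjusted p = 2.62e-14). The T-to-C site chr13:66014749 in gene16202 had 17.6% to 28.6% in the pituitary and 22.1% to 29.8% in the hypothalamus, and the A-to-G site chr10:58324002 in gene12906 had 18.5% to 32.8% in the pituitary and 25.3% to 32.6% in the hypothalamus. The fifth, chr18:1850821 in gene20589, had 19.8% to 45.0% over 6 libraries of 20 to 81 reads, and without the 18-month cow numbered 3 it did not pass (limma, adjusted p = 0.0556).

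The shares of pituitary and hypothalamus were then compared within each cow. Over 3808 to 7364 3′ UTR sites heterozygous at depth 20 or more in both tissues, the median absolute difference in reference share was 6.26 to 6.92 percentage points per cow, and 65.7% to 69.8% of sites lay within 10 points. Over cows it was 6.56 ± 0.18 points at 3′ UTR and 6.59 ± 0.22 at synonymous sites (difference −0.03, exact adjusted p = 0.723, lower in 4 of 9 cows), 6.93 ± 0.16 at nonsynonymous and 7.71 ± 0.42 at intron sites (exact adjusted p = 0.0117 for both). Depth moved with these values: the lower of the depths compared had a median over cows of 49 reads at 3′ UTR, 47 at synonymous, 41 at nonsynonymous and 31 at intron sites. Set over the counting error of both libraries, the median squared difference ran the other way. It was 0.599 ± 0.034 at 3′ UTR, 0.576 ± 0.038 at synonymous, 0.570 ± 0.036 at nonsynonymous and 0.577 ± 0.020 at intron sites, where counting error alone gives 0.455. The 3′ UTR value was higher than each other class in 7 of 9 cows, and no difference passed (exact adjusted p = 0.0547 for all 3). With the mean over sites in place of the median, the ratio was 1.442 at 3′ UTR and 1.448 at synonymous sites. It was 1.320 at nonsynonymous and 1.313 at intron sites, and these means were not tested.

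The correlation of the share between the tissues of a cow was 0.297 to 0.387 (Pearson, across sites, median 0.335, 9 cows). Libraries of different cows gave a median of 0.323 within a tissue and 0.325 across tissues, over the sites heterozygous in both. These were fewer and partly other sites: 1334 to 2823 per pair within a tissue and 1304 to 3049 across tissues, against 3808 to 7364 within a cow. The median absolute difference was 6.55 points within a cow, 6.82 between cows within a tissue and 6.85 between cows across tissues. Correlation was higher at greater depth up to 200 reads, by the lower of the depths compared, and no higher above: the median over cows was 0.265 at 20 to 49 reads, 0.386 at 50 to 99, 0.588 from 100 to fewer than 200 and 0.556 at 200 or more, where the cows ranged from 0.379 to 0.766. The absolute difference was 8.68, 6.08, 4.43 and 3.14 points in the same depth ranges. These correlations are descriptions, since sites of a gene share reads and libraries share sites.

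**Figure D5:**
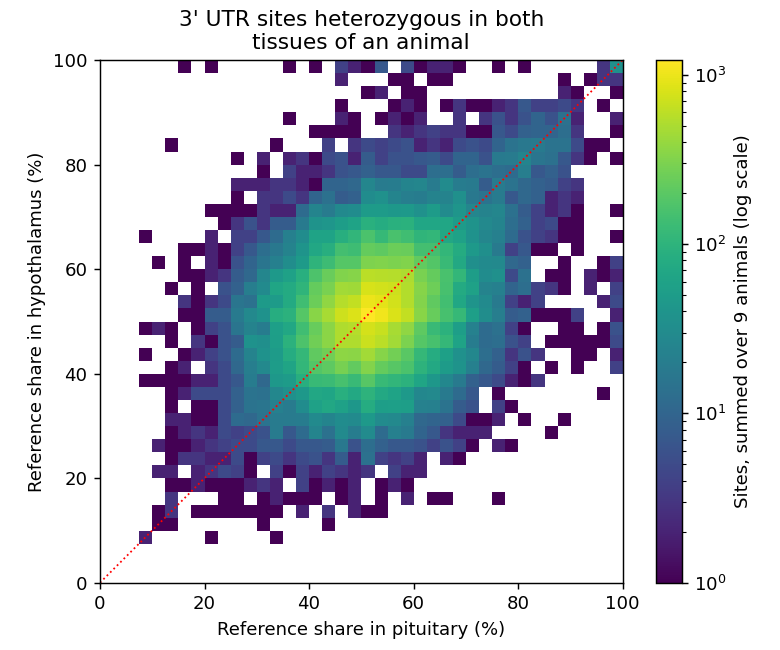
Reference allele share in the pituitary (horizontal axis, %) and in the hypothalamus (vertical axis, %) of the same cow at 3′ UTR sites heterozygous at depth 20 or more in both; colour gives the number of sites summed over 9 cows on a log scale, and the dotted line marks equal shares. Most sites lie in a round cloud near 50%, with a thin band along the line toward high reference shares.

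No 3′ UTR site passed the test for a difference between tissues. Over 8761 sites in 3141 gene models, limma called 0 (adjusted over 27130 sites; background 0%), while 423 (4.83%) had an unadjusted p under 0.05, against 1193 (4.40%) over all classes. The site of smallest p was chr29:36986743 in gene30328, of unknown strand, where the reference share was 69.2%, 67.9%, 51.7% and 51.4% in the pituitary of 4 cows and 41.8%, 24.1%, 31.1% and 45.8% in their hypothalamus, at 24 to 61 reads. The tissue ranges did not overlap (logit difference 0.95, SE 0.26, limma, adjusted p = 0.99992). At the T-to-C site chr8:75871285 in gene10715 the share was 36.2% to 51.9% in the pituitary and 50.9% to 56.5% in the hypothalamus, lower in the pituitary of 5 of 5 cows (logit difference −0.34, SE 0.09, limma, adjusted p = 0.99992). The 36.2% came from the 18-month cow numbered 3, whose pituitary library stood apart in depth. The other cows had 45.0% to 51.9% in the pituitary and 53.4% to 56.5% in the hypothalamus.

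The third site was chr15:66577379 in gene18279, described above for its high reference share. The pituitary had 75.4% and the hypothalamus 88.7% in the 6-month cow numbered 2, and 73.6% and 88.5% in the 30-month cow numbered 2. The other 3 cows had 86.0%, 92.0% and 90.4% in the pituitary and 87.9%, 90.7% and 87.9% in the hypothalamus. The difference thus came from 2 of 5 cows (logit difference −0.44, SE 0.12, limma, adjusted p = 0.99992). With each cow left out in turn, 0 to 2 3′ UTR sites passed. Without the 30-month cow numbered 3 they were gene18279 and chr11:36411878 in gene13758 (limma, adjusted p = 0.0493 for both). The gene13758 site also passed without the 18-month cow numbered 1, with chr13:66012915 in gene16202, and without the 18-month cow numbered 2, with chr23:8532253 in gene26026. The gene26026 site had opposite directions in its calls: its logit difference was 2.80 without the 18-month cow numbered 2 and −3.37 without the 6-month cow numbered 2. The site chr25:37918249 in gene28384 passed without the 18-month cow numbered 3 (limma, adjusted p = 0.0455).

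Fisher's exact test within single cows, which takes no account of the spread between cows, called 149 of 52099 pairs of site and cow (0.286%; background over all classes 0.251%). The 149 calls fell on 132 sites, with a higher reference share in the pituitary in 79 and a lower one in 70, and 15 of them had a library with 0 reads of an allele. Their median absolute difference was 40.3 points. The 18-month cow numbered 3, whose pituitary library stood apart in depth, gave 30 of the calls and the other cows 9 to 21 each. Of the 14 sites called in several cows, 3 went in the same direction in each of them: gene18279 above, chr11:36411878 in gene13758 and chr5:109663070 in gene6952. In gene13758 the reference share was 56.3% in the pituitary and 79.2% in the hypothalamus of the 6-month cow numbered 2, and 36.5% in the pituitary and 78.1% in the hypothalamus of the 30-month cow numbered 2 (Fisher's exact test, adjusted p = 0.0102 and 1.28e-28). These are the same 2 cows that set gene18279 apart. In gene6952 the hypothalamus had 16 and 10 reads of the listed alleles and a reference share of 100% in both cows. The last 2 of these sites were chosen after their values were seen.

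Over all 3′ UTR sites, none of the summary measures tested passed between tissues or across ages. The depth of non-reference calls was not among them. The reference share was 52.63% ± 0.16 in the pituitary and 52.64% ± 0.12 in the hypothalamus (SD, n = 9 libraries each; exact permutation test, p = 0.857). The heterozygous percent was 65.4 ± 2.41 in the pituitary and 65.6 ± 2.34 in the hypothalamus (exact p = 0.847), and A-to-G plus T-to-C calls made up 35.1% ± 0.32 in the pituitary and 35.1% ± 0.31 in the hypothalamus (exact p = 0.766). Depth with homozygous reference calls included was 35.2 ± 1.56 reads in the pituitary and 35.9 ± 1.45 in the hypothalamus (exact p = 0.450; adjusted p = 0.857 for all 4 measures). These tests did not pair the tissues of a cow. Paired, the heterozygous percent had the smallest p (exact sign-flip test, p = 0.145, adjusted p = 0.578).

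By age, the reference share was 52.65% ± 0.18 at 6 months, 52.60% ± 0.10 at 18 months and 52.67% ± 0.12 at 30 months (n = 3 cows each, SD; exact permutation test, p = 0.761). Heterozygous calls made up 66.2% ± 4.15, 65.3% ± 2.03 and 65.1% ± 0.27 at these ages, with the widest spread among the 6-month cows. The difference between tissues was 6.62 ± 0.06, 6.45 ± 0.17 and 6.60 ± 0.27 points at 6, 18 and 30 months (exact p = 0.604). All 5 measures had an adjusted exact p of 0.886, and with 3 cows per age the test can reach no less than 0.00357.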

How the data were processed

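Poly(A) RNA of pituitary and hypothalamus was sequenced by the authors (9 cows, 18 libraries, 6 groups of 3). HISAT2, StringTie, GATK and DESeq are listed in the submitters' processing notes, without versions or roles, and no genome build is given in the sources used here. The deposited SNP table gives, per the file headers, a base-letter genotype per library, a depth that is a count of reads, and counts of reads with either allele, none of them normalized; the gene table, deposited by the authors, holds raw read counts and a gene model length. Allele read counts did not add up to the depth at 1376 of 625624 3′ UTR calls (0.220%). No column was left without a sample (0).

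Sites with the effect class 3′ UTR were taken whole. Calls of at least 20 reads were used. Replicates are the cows the labels describe; tissues of a cow were paired by age and number, after checking that their genotypes matched and those of other pairs did not. The numbers themselves follow accession order and paired nothing without that check. Site classes were compared per cow by exact sign-flip tests (512 flips, smallest p 0.0039062, adjusted over 3 classes), tissues by exact permutation of 9 against 9 libraries (48620 splits, adjusted over 4 measures) and ages by exact permutation (1680 splits, adjusted over 5 measures), all two-sided. Site tests used limma 3.58.1 (R 4.3.3) on logit shares with 0.5 added to each allele count, weighted by the inverse counting variance, with Benjamini-Hochberg adjusted p under 0.05. The scripts were tested on simulated data, where the false share among site calls at this threshold was above its nominal level, so adjusted p-values of sites near it are too small. Other steps used Python 3.11.15, numpy 2.4.6, pandas 2.3.3 and scipy 1.17.1.

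The members, lists and tests were chosen with earlier results of these data known. Sites named are the 3 of smallest p between tissues, the 5 most unequal on each side of 50%, the 5 deepest, the 5 gene models with most sites and up to 8 sites heterozygous in every library; others are stated as chosen afterwards. SDs given for a depth cover counting error only, while intervals of fitted shares include the spread between cows; the labels describe no molecular identifiers. Sequences around the sites are not shown. The deposited insertion and deletion table and FPKM table were not used here.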

Additional observations from a re-analysis of the deposited data

Results flagged for a closer look

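In 22 groups of values examined, 3 held a sample far from the others; chance gives about 1 in 20. All 3 are the pituitary library of the 18-month cow numbered 3 among the 9 pituitary libraries. It had 7577 non-reference 3′ UTR calls at depth 20 or more, against 9380 in the next library. Their median depth was 70 reads, against 58 in the next. The median log2 depth ratio of the most distal over the most proximal 3′ UTR site was 1.23 there, against −0.20 in the next. Its share of non-reference calls that reached 20 reads was 57.0% at 3′ UTR and 37.6% at synonymous sites, the lowest of the 18 libraries in both classes. The ratio of distal to proximal depth was added after seeing the data.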

How the results depend on the processing

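Under the alternatives run, 241 values of the comparisons and 201 of named sites kept their direction and side of the threshold, or a count within 1.5 times. The depth difference between 3′ UTR and synonymous sites, −6.33 reads, was −0.5 at a minimum depth of 50 (exact adjusted p = 0.359) and reversed to 4.42 with non-reference calls only, an alternative chosen after seeing the data (exact adjusted p = 0.00391). The heterozygous percent differed by 0.94 points at depth 50 (exact adjusted p = 0.109) and by 0.94 on autosomes (exact adjusted p = 0.0781), and by 0.90 to 1.30 with each cow left out. Leaving out cows gave 0.017 to 0.029 for the excess over counting error, which passed only without the 18-month cow numbered 1 (exact adjusted p = 0.0352). Counting distinct sites in place of calls moved the A-to-G plus T-to-C difference to −2.91 points.

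The other reversals were in differences that passed neither as reported nor under the alternative. At depth 50 the absolute share difference, 3′ UTR minus synonymous, was 0.038 points, and pituitary minus hypothalamus was 0.038 for the heterozygous percent and −0.22 for A-to-G plus T-to-C calls. Reference share was −0.020 for 30 minus 6 months at depth 10, and 0.022 between tissues at isolated sites. With each cow left out, the absolute share difference against synonymous sites was −0.080 to 0.018. Differences of 30 minus 6 months were −3.30 to 0.81 for the heterozygous percent, −0.25 to 0.034 for A-to-G plus T-to-C, −0.073 to 0.098 for reference share and −0.17 to 0.069 for the absolute share difference. With each library left out, pituitary minus hypothalamus was −0.79 to 0.32 for the heterozygous percent, −0.0096 to 0.12 for A-to-G plus T-to-C and −0.033 to 0.018 for reference share.

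The count of 1175 sites unequal to 50% became 726 at depth 50, where 4173 sites were tested (17.4%, against 15.7% over all classes). It became 583 with at least 5 cows, where 2948 were tested (19.8%, against 19.3%), and 774 among isolated sites (11.7%, against 10.5%). Without weights it was 569 (6.49%, against 6.82%), so the order against all classes turned round. The cause of the unweighted change was not tested. With each cow left out the count was 993 (11.3%, against 10.2%) to 1160 (13.2%, against 12.3%). Between tissues, limma called 0 to 2 sites with each cow left out, and Fisher's exact test 149. The 19 sites heterozygous in every library became 9 at depth 50 and 106 with at least 16 libraries. With the replicate block, which pairs the tissues of a cow, the tissue differences had adjusted p-values of 0.578 (heterozygous percent) to 0.836 (reference share) by exact sign-flip test, and the block changed no call. The pairing rests on the genotypes. Depth limits single sites: at 20 reads counting error alone has an SD of 11.2 points.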
